A study of Rattus norvegicus with 9 samples.

Results

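The 10 immediate early genes described here were chosen by name, with earlier results of these data known. The set comprises the entries of the count table for Fos, Fosb, Fosl2, Jun, Junb, Egr1, Egr2, Egr4, Arc and Npas4. They are 10 of 37209 genes in the table, and all 10 passed the filter on low counts that left 16837 genes for testing. The RNA came from the frontal cortex of 9 male Wistar rats, 14 weeks old by the labels, with 3 rats in each of the groups Control, MS and MS+EA. Control rats (A1, A2 and A6) stayed with their mothers undisturbed. MS rats (B3, B4 and B6) were subjected to maternal separation (MS) for 4 h a day from postnatal day (PND) 1 to PND 21. MS+EA rats (C3, C10 and C16) had the same separation and then received electroacupuncture (EA) at the acupoints GV20 and GV29 every other day from PND 61 to PND 81. By the study's methods, the Control and MS rats were anesthetized with isoflurane but not needled during those days, and rats of every group were under isoflurane when the cortex was removed. The sham EA group of the behavioral tests is not among the sequenced samples, so needling, current and their combination cannot be told apart. The litters of the sequenced rats and the time of day of tissue removal are not given in the sources used here. By the labelled age of 14 weeks, the cortex was removed after the EA course had ended, and the interval is not stated. RNA during or soon after an EA session was not measured.

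Immediate early genes are transcribed soon after neuronal activity and without new protein synthesis, so that their RNA in the cortex follows the recent activity of its neurons. The Fos proteins (here Fosb, Fosl2 and Fos itself) pair with Jun proteins to form AP-1, a transcription factor that acts on later genes. The Egr genes encode zinc finger transcription factors, Arc encodes a synaptic protein that takes part in the removal of AMPA receptors, and Npas4 is a transcription factor induced selectively by calcium entry. Calcium and kinase signals reach the promoters of such genes mainly through the serum response factor, which binds the CArG box, and through CREB, which binds the cAMP response element (CRE).

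Of the 10 genes, 7 were matched by symbol to RefSeq promoters of build GRCr8, and Fos, Jun and Arc are named only. The window searched held 250 bases before the start site and 50 after it, on both strands. A CArG box was found in 2 of the 7 windows, those of Egr1 and Egr2, and in 1.64% of all 33469 windows of the same length. The short CRE TGACG was found in 4 of the 7, those of Egr1, Egr2, Egr4 and Junb, and in 21.2% of all windows. The full CRE TGACGTCA, which contains the short one, the AP-1 site TGANTCA and the Egr site GCGTGGGCG were found in 0 of the 7, compared with 1.83%, 7.33% and 0.544% of all windows. These matches describe letters and not bound sites. The windows rest on the annotated start sites, so a motif absent from a window may lie elsewhere near the gene. The exact letters TATAAA, a form of the TATA box, were found in 2 of the 7, those of Fosb and Junb, and in 14.2% of all windows. In Junb they began 49 bases before the start site. In Fosb they lay on the opposite strand, from 180 bases before it. Variants such as TATATAAG, which the windows of Egr4 and Npas4 hold, were not searched for. Of the genes that passed the test below, Junb and Egr4 held a TGACG and Fosb held none of the motifs but TATAAA. Egr1 and Egr2, with both CArG boxes and TGACG, did not pass it. No relation between motifs and differences between groups was tested. The 4 promoters with a CArG box or TGACG are shown so that the position of these letters can be read beside the values of the genes. Each line gives the 200 bases before the start site, 5′ to 3′ on the gene's strand, with CArG boxes and TGACG (or its reverse complement CGTCA) in capitals. They lie at chr18:26736878-26737077 (+ strand), chr20:21054442-21054641 (- strand), chr4:119607818-119608017 (- strand) and chr19:40080926-40081125 (+ strand).
Egr1: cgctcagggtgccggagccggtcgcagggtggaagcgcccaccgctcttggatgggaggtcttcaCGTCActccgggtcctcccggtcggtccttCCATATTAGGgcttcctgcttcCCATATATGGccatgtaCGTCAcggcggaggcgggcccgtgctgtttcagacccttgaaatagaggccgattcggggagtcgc
Egr2: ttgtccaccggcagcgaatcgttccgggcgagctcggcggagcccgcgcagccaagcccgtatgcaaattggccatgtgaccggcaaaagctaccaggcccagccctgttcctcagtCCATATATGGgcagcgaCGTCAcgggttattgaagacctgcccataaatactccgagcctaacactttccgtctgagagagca
Egr4: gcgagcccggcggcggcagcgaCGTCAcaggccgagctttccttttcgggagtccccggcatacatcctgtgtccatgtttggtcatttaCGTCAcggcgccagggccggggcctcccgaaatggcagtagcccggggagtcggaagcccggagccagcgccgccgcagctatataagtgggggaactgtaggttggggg
Junb: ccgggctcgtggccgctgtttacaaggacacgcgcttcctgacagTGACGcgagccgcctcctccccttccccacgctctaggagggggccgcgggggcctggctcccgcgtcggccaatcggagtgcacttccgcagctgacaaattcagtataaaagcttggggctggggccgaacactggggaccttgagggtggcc
In Egr1 the CArG boxes began 105 and 83 bases before the start site, and the single box of Egr2 also began 83 bases before it.

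The deposited counts per rat summed to between 16153292 and 19007907 in the Control group, between 16106381 and 17243320 in the MS group, and between 12479905 and 14913736 in the MS+EA group. Levels are given as CPM, the counts of a gene scaled to a common library total with TMM factors. They compare rats for a given gene and not genes with each other, since no transcript lengths were used. The markers of excitatory cortical neurons were present in every rat, with Slc17a7, the vesicular glutamate transporter, between 1225 and 1635 CPM. The summed level of the 6 excitatory markers was between 3930 and 4560 CPM in Control rats, between 3990 and 4050 CPM in MS rats and between 3420 and 3550 CPM in MS+EA rats. Of these 6 genes, 4 had a negative and 2 a positive log2 fold change in MS+EA relative to Control rats (median -0.10), and 3 and 3 relative to MS rats (median 0.01), so that the sum followed its abundant members such as Slc17a7 and Camk2a. The 6 markers of inhibitory neurons summed to between 480 and 518 CPM in Control rats, between 474 and 617 CPM in MS rats and between 477 and 633 CPM in MS+EA rats. For the 6 markers of oligodendrocytes the sums were 2120 to 3240 CPM (Control), 1830 to 2910 CPM (MS) and 2050 to 4180 CPM (MS+EA). All 6 had a positive log2 fold change in MS+EA relative to MS rats (median 0.44) and relative to Control rats (median 0.15). In MS relative to Control rats all 6 had a negative one (median -0.23). In bulk tissue, fewer cells of a type and less RNA per cell cannot be told apart. Genes typed as lncRNA held 0.976% to 1.13% of the counts in MS+EA rats and 0.798% to 0.964% in the other rats. Markers of hypothalamic neurons summed to 47.8 CPM in 1 MS rat and to at most 5.78 CPM in any Control or MS+EA rat. The 3 of 4 blood markers analysed here summed to between 67.0 and 138 CPM in Control rats, between 155 and 218 CPM in MS rats and between 146 and 214 CPM in MS+EA rats, so that each Control rat was below each of the others. The 5 of 6 endothelial markers analysed here summed to between 121 and 137 CPM in Control rats, between 153 and 177 CPM in MS rats and between 131 and 161 CPM in MS+EA rats. The part of the count totals, the lncRNA share, the excitatory sum and the oligodendrocyte, blood and endothelial markers in the results below was not tested.

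All 10 genes had their highest rat in the Control group, A2 for 5 genes and A6 for 5. The lowest rat was always in the MS+EA group, C10 for 5 genes, C16 for 4 and C3 for 1. A1 was among the 3 lowest rats for 5 genes, and C3 among the 3 highest for 5. The share of all tested genes with such an order was not computed. For 8 of the 10 genes the group means were ordered Control, MS, MS+EA from high to low. The exceptions were Jun, with its highest mean in MS rats, and Npas4, with its lowest mean in MS rats. In the comparison of MS+EA with Control rats, 3 of the 10 (Fosb, Junb and Egr4) passed the test, as did 1.37% of all tested genes (0.119% as lower). In MS against Control and MS+EA against MS, 0 of the 10 passed, beside 0.0238% and 0.0178% of all tested genes.

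**Figure D1:**
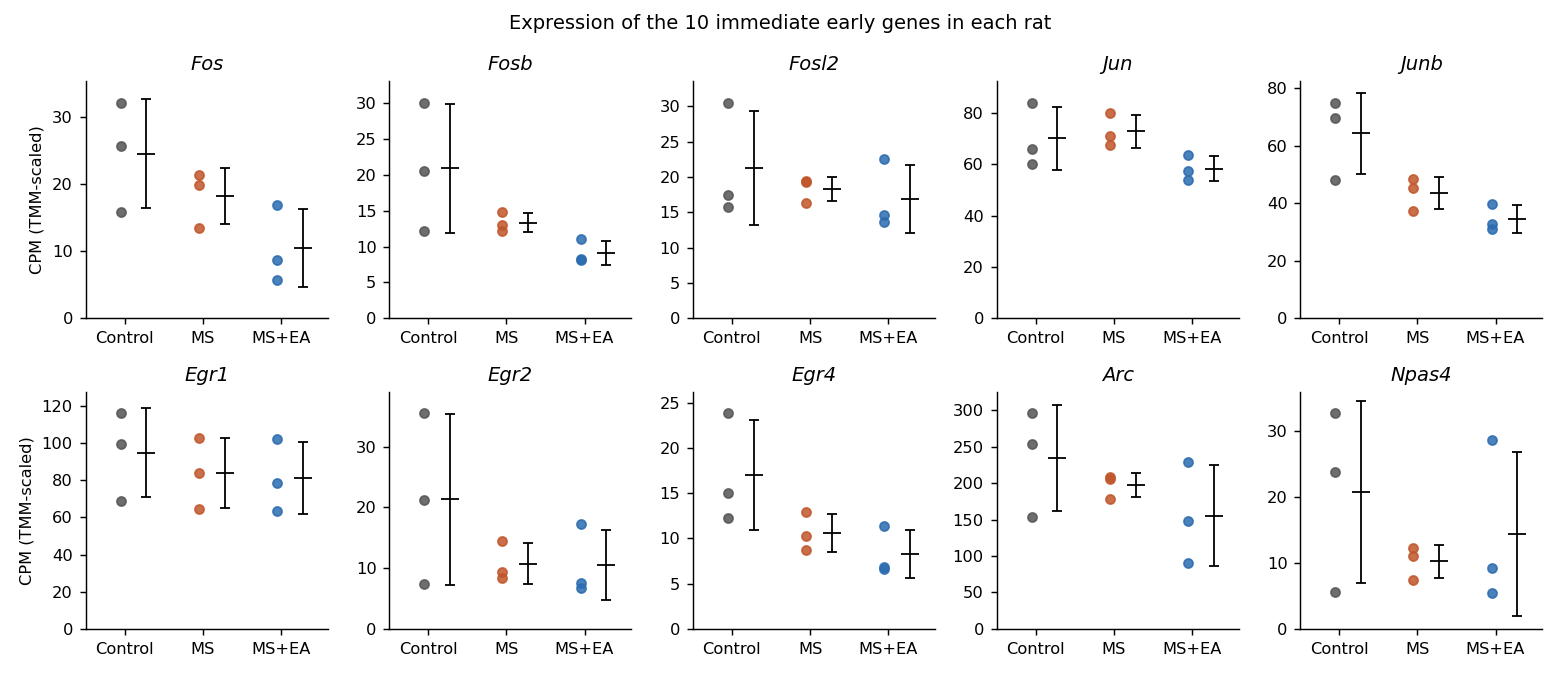
CPM of each of the 10 genes (vertical axis, from 0) in each rat, grouped as Control, MS and MS+EA (horizontal axis). Points are rats, and the bar beside them is the mean ± SD (n = 3). For Fosb, Junb and Egr4 all MS+EA points lie below all Control points.

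Among the Fos family, Fosb encodes a Fos protein whose truncated form is long-lived and gathers after repeated stimulation. Its level was 12.2, 20.5 and 30.1 CPM in the Control rats A1, A2 and A6, 12.9, 14.9 and 12.2 CPM in B3, B4 and B6 of the MS group, and 11.0, 8.24 and 8.11 CPM in the MS+EA rats C3, C10 and C16. Each MS+EA rat was below each of the other 6 rats, whereas the MS rats lay within the range of the Control rats. The mean was 20.9 ± 8.98 CPM (n = 3, SD) in Control rats and 9.13 ± 1.65 CPM (n = 3, SD) in MS+EA rats. Fosb thus had a log2 fold change of -1.19 in MS+EA relative to Control rats (SE 0.262, edgeR adjusted p = 0.0256). The call was lost without A2, A6, C10 or C16, with a log2 fold change of -0.83 without A6 (edgeR adjusted p = 0.0794).

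Fos itself, the usual marker of activated neurons, was at 15.9, 32.2 and 25.7 CPM in the Control rats, 13.5, 19.9 and 21.3 CPM in the MS rats, and 16.9, 5.76 and 8.74 CPM in the MS+EA rats. C10 and C16 were the lowest of all rats, and C3 lay above the Control rat A1. Its log2 fold change in MS+EA relative to Control rats was -1.23 (SE 0.337, edgeR adjusted p = 0.0538), which did not pass the test although it was larger than that of Fosb. Without C3 it was -1.76 (edgeR adjusted p = 0.0120) and without C10 it was -0.93 (edgeR adjusted p = 0.129), and over all alternatives the adjusted p of Fos lay between 2.96e-04 and 0.157. Relative to MS rats the log2 fold change of Fos was -0.80 (SE 0.340, edgeR adjusted p = 0.365), and it was -1.33 without C3 and -0.50 without C10.

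Fosl2, also called Fra-2, is a Fos relative with slower kinetics. It had 15.8, 17.5 and 30.5 CPM in the Control rats, 19.3, 16.3 and 19.4 CPM in the MS rats, and 22.5, 13.7 and 14.6 CPM in the MS+EA rats. The groups overlapped, and the Control rat A6 stood above all others. For Fosl2 the log2 fold change was -0.33 in MS+EA relative to Control rats (SE 0.239, edgeR adjusted p = 0.456), and without A6 it was 0.03. The remaining Fos gene, Fosl1, was not tested because of its low counts. Its counts were 2, 2 and 8 in the Control group, 2, 0 and 3 in the MS group, and 0 in each MS+EA rat.

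Junb, a Jun protein that is itself induced by activity, had the smallest adjusted p of the 10 genes. Its level was 48.2, 75.0 and 69.6 CPM in the Control rats, 37.3, 48.3 and 45.2 CPM in the MS rats, and 39.9, 32.6 and 30.9 CPM in the MS+EA rats. The MS+EA rats were all below the Control rats, and of the MS rats only B4 reached the level of the Control rat A1. Junb fell to a mean of 34.5 ± 4.76 CPM (n = 3, SD) in MS+EA rats from 64.3 ± 14.2 CPM (n = 3, SD) in Control rats, with 43.6 ± 5.69 CPM (n = 3, SD) in MS rats. The log2 fold change of Junb was -0.90 in MS+EA relative to Control rats (SE 0.159, edgeR adjusted p = 0.0116). It was -0.56 in MS relative to Control rats (SE 0.156, edgeR adjusted p = 0.190) and -0.34 in MS+EA relative to MS rats (SE 0.160, edgeR adjusted p = 0.414). Junb was the only gene of the 10 that passed the test between MS+EA and Control rats with each of these rats left out in turn, and its adjusted p was then at most 0.0407.

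Jun, the founding member of the Jun family and a target of the JNK kinases, varied least within groups. It had 60.2, 84.1 and 66.0 CPM in the Control rats, 70.9, 67.7 and 80.1 CPM in the MS rats, and 54.0, 57.2 and 63.5 CPM in the MS+EA rats. The MS+EA rats were below every MS rat but overlapped the Control rats. For Jun the log2 fold change was -0.32 in MS+EA relative to MS rats (SE 0.118, edgeR adjusted p = 0.316) and 0.06 in MS relative to Control rats (SE 0.116, edgeR adjusted p = 0.901). Jund, the Jun gene that is expressed at a steady level in most cells and is not among the 10, had 42.0, 36.2 and 49.9 CPM in the Control rats, 39.1, 43.0 and 39.4 CPM in the MS rats, and 37.5, 31.5 and 27.3 CPM in the MS+EA rats. Its log2 fold change in MS+EA relative to Control rats was -0.41 (SE 0.131, edgeR adjusted p = 0.0868).

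**Figure D2:**
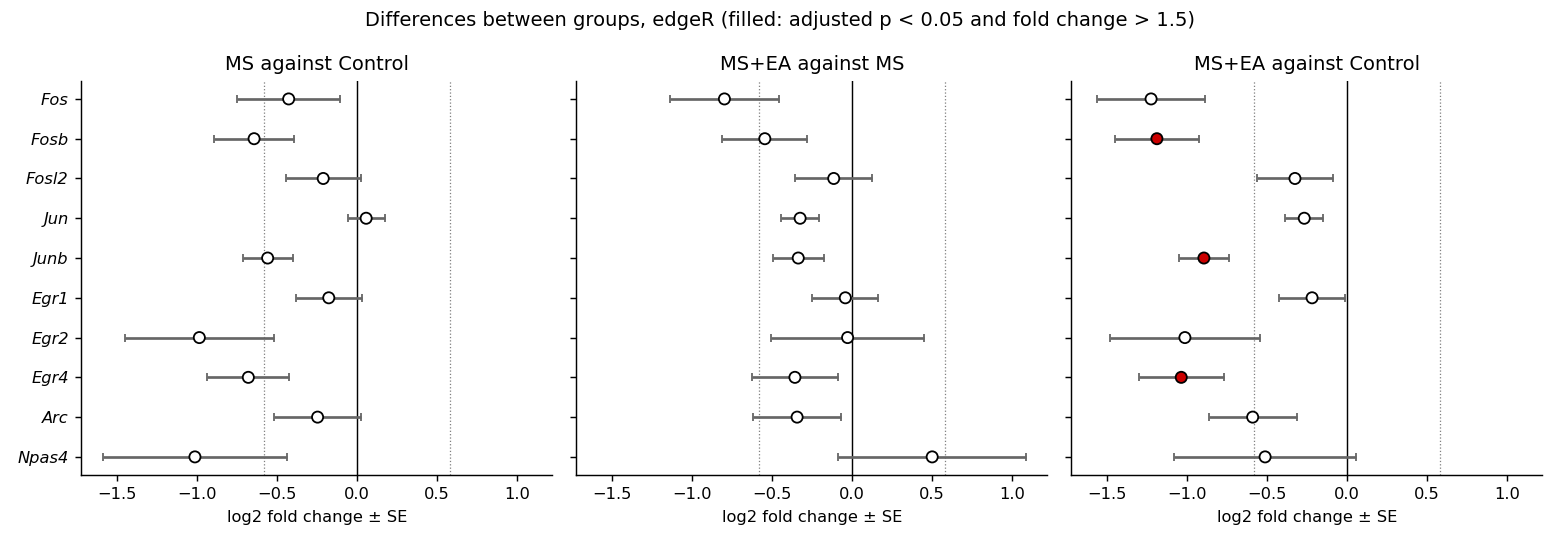
Log2 fold change (horizontal axis, bars are the standard error) of each of the 10 genes in the 3 comparisons, with dotted lines at a fold change of 1.5. Filled points passed the test, and these are Fosb, Junb and Egr4 in MS+EA against Control.

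Egr4, a member of the Egr family found mainly in the nervous system, had 12.2, 15.0 and 23.8 CPM in the Control rats, 8.69, 12.9 and 10.2 CPM in the MS rats, and 11.3, 6.83 and 6.60 CPM in the MS+EA rats. The MS+EA rats were all below the Control rats, C3 by less than 1 CPM. Egr4 averaged 8.25 ± 2.65 CPM (n = 3, SD) in the MS+EA rats and 17.0 ± 6.06 CPM (n = 3, SD) in the Control rats, a log2 fold change of -1.04 (SE 0.265, edgeR adjusted p = 0.0418). The call of Egr4 was lost when A1, A2, A6, C10 or C16 was left out, with total counts (edgeR adjusted p = 0.0522) and in a fit of the 6 rats compared (edgeR adjusted p = 0.0509), and over all alternatives its adjusted p lay between 7.39e-04 and 0.146. In MS relative to Control rats the log2 fold change of Egr4 was -0.68 (SE 0.258, edgeR adjusted p = 0.362), and -0.36 without A6.

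Egr2, known as Krox20 and a regulator of myelination in peripheral nerve, had the widest spread of the Egr genes. Its level was 7.33, 21.3 and 35.5 CPM in the Control rats, 8.34, 9.32 and 14.6 CPM in the MS rats, and 17.2, 6.77 and 7.55 CPM in the MS+EA rats. A2 and A6 were above all other rats, and A1 was near the lowest. For Egr2 MS relative to Control rats gave a log2 fold change of -0.99 (SE 0.464, edgeR adjusted p = 0.477) and -1.01 in MS+EA relative to Control rats (SE 0.470, edgeR adjusted p = 0.224). Without the Control rat A6 they were -0.41 and -0.43. They were -1.40 and -1.43 without A1, and without C3 the latter was -1.57, and 0 of these passed the test in edgeR. Over all alternatives the adjusted p of Egr2 in MS+EA relative to Control rats lay between 0.0253 and 0.653.

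Egr1, also called Zif268 and needed for lasting synaptic plasticity, had 68.8, 116 and 99.2 CPM in the Control rats, 64.7, 83.9 and 103 CPM in the MS rats, and 102, 63.7 and 78.3 CPM in the MS+EA rats. The 3 groups overlapped over most of their range. For Egr1 the log2 fold change in MS+EA relative to Control rats was -0.22 (SE 0.206, edgeR adjusted p = 0.574), and in MS+EA relative to MS rats it was -0.04 (SE 0.207, edgeR adjusted p = 0.957).

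Egr3, an effector of neurotrophin signals and not among the 10, had 23.0, 29.1 and 33.1 CPM in the Control rats, 26.4, 31.3 and 31.6 CPM in the MS rats, and 21.4, 17.9 and 19.2 CPM in the MS+EA rats. Each MS+EA rat was below each of the other rats. The log2 fold change of Egr3 was -0.61 in MS+EA relative to MS rats (SE 0.137, edgeR adjusted p = 0.184). Relative to Control rats it was -0.54 (SE 0.137, edgeR adjusted p = 0.0407), a difference under the fold change of 1.5 that the test required. In MS relative to Control rats the log2 fold change of Egr3 was 0.07 (SE 0.133, edgeR adjusted p = 0.896).

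Arc was at 154, 254 and 296 CPM in the Control rats, 208, 178 and 206 CPM in the MS rats, and 229, 89.9 and 149 CPM in the MS+EA rats. C10 and C16 were the lowest rats, and C3 lay between A1 and A2. For Arc the log2 fold change in MS+EA relative to Control rats was -0.59 (SE 0.275, edgeR adjusted p = 0.227), and without C3 it was -0.97 (edgeR adjusted p = 0.0439). Leaving out C10 gave -0.31 (edgeR adjusted p = 0.491), and leaving out A6 gave -0.38 (edgeR adjusted p = 0.520). Over all alternatives the adjusted p of Arc in this comparison lay between 0.02315 and 0.520.

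Npas4 was the most variable of the 10 genes, and its pattern differed from the rest. It had 23.7, 32.6 and 5.60 CPM in the Control rats, 7.46, 12.3 and 11.0 CPM in the MS rats, and 28.6, 9.18 and 5.49 CPM in the MS+EA rats. The Control rat A6, which had the highest Fosb, Fosl2, Egr2, Egr4 and Arc of all rats, had less Npas4 than every MS rat, and C3 had more than A1. The log2 fold change of Npas4 was -1.01 in MS relative to Control rats (SE 0.577, edgeR adjusted p = 0.554) and 0.50 in MS+EA relative to MS rats (SE 0.588, edgeR adjusted p = 0.762). The former was -1.46 without A6 and -0.54 without A2, and the latter was -0.46 without C3 and 0.88 without C16.

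Differences between rats of a group were large for these genes. The SD of log2 CPM within groups was 1.06 for Npas4, 0.82 for Egr2, 0.58 for Fos and 0.49 for Arc, above that of 99.2%, 97.6%, 92.3% and 87.9% of the tested genes, respectively. For Jun it was 0.17, above that of 49.4% of them, and for Junb 0.25, above that of 65.5%. Within the Control group A1 was the lowest rat for 9 of the 10 genes, all but Npas4. Within the MS+EA group C3 was the highest rat for 9 of the 10, all but Jun. No single MS rat held such a place, since B3 was the lowest for 6 genes, B4 for 3 and B6 for 1.

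**Figure D3:**
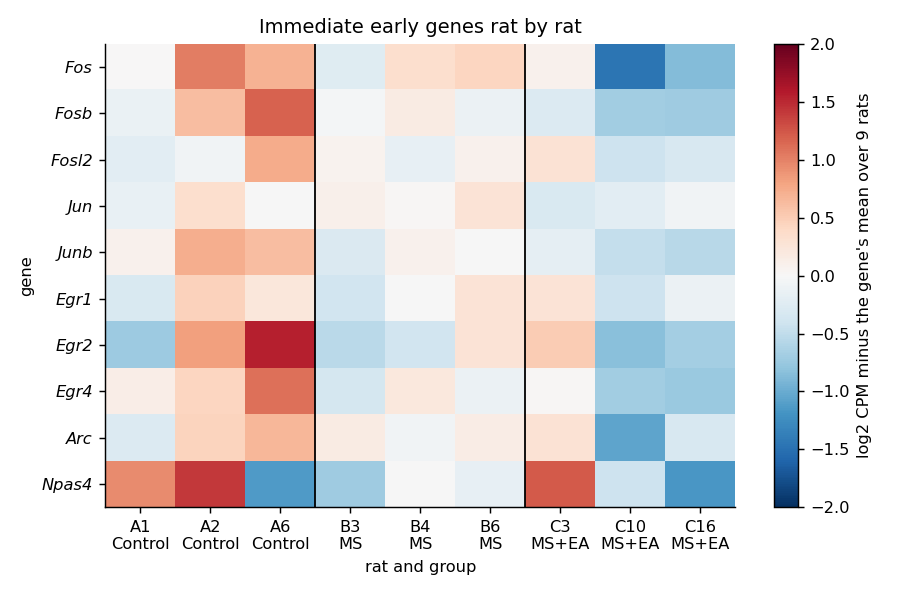
Log2 CPM of each gene in each rat minus the mean of that gene over the 9 rats (colour scale), with genes as rows and rats, grouped as Control, MS and MS+EA, as columns. A2 and A6 are the darkest red and C10 and C16 the darkest blue for most genes, and the row of Npas4 departs from the others in A6 and A1.

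Relative to Control rats, MS rats had a negative log2 fold change for 9 of the 10 genes, with a median of -0.49, whereas 50.3% of all tested genes were negative and the median of all was -0.00. By edgeR's test 0 of the 10 passed (over all tested genes, 0.0238% passed, 0.00594% as lower), and DESeq2 also called 0. Junb was held back in DESeq2 by the fold change alone, with an adjusted p of 0.0311 at a log2 fold change of -0.56, and likewise in edgeR with a filter of at least 1 count (adjusted p = 0.00491). At an unadjusted p under 0.05, 3 of the 10 were lower (Fosb, Junb and Egr4) and 0 higher, where 3.55% of all tested genes were lower and 7.06% higher. No gene of the 10 was without overlap between the groups, compared with 7.53% of tested genes that were entirely lower in MS rats. The number at an unadjusted p under 0.05 was 1 without the MS rat B3.

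Between MS+EA and MS rats, 9 of the 10 genes had a negative log2 fold change, with a median of -0.33, beside 49.9% and 0.00 for all tested genes. Npas4 was the positive one. By edgeR's test and by DESeq2, 0 of the 10 passed (0.0178% of all tested genes passed in edgeR). At an unadjusted p under 0.05, Fos and Jun were lower and 0 genes higher, against 6.42% and 6.01% of all tested genes. Fosb and Jun were entirely lower in the MS+EA rats without overlap, as were 9.60% of tested genes, and 0 were entirely higher, as were 8.27%. The number at an unadjusted p under 0.05 was 5 without C3, 1 without B4, C10 or C16, and 0 without B6. These MS rats are also those compared with the Control rats, so the signs of the 2 comparisons are not independent.

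In MS+EA relative to Control rats, all 10 genes had a negative log2 fold change, with a median of -0.74, compared with 49.1% of all tested genes and a median of 0.01. The test was passed by 3 of the 10, all lower, and by 1.37% of tested genes, 0.119% as lower and 1.25% as higher. The same 3 were those with an adjusted p under 0.05 at any fold change, where 2.19% of tested genes were lower. At an unadjusted p under 0.05, 5 of the 10 were lower (Fos, Fosb, Jun, Junb and Egr4), where 10.6% of tested genes were lower. Groups without overlap were seen for 3 of the 10, those that passed the test, and for 12.9% of tested genes as lower. DESeq2 also called Fosb, Junb and Egr4, with log2 fold changes of -1.20, -0.90 and -1.05. The number that passed depended on single rats. It was 5 without C3, 2 without A1, and 1, namely Junb, without A2, A6, C10 or C16. With a rat left out the share of all tested genes that passed was not computed.

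The other genes of the activity response were described from lists of names. The list of 26 other early response genes had a median log2 fold change of -0.37 in MS+EA relative to Control rats, with 22 of them negative, and 0 passed the test. In that comparison 7 were lower and 1 higher at an unadjusted p under 0.05, beside 10.6% and 11.9% of all tested genes. Dusp6, a phosphatase that switches off ERK, had 47.2 ± 7.28 CPM (n = 3, SD) in Control rats, 46.1 ± 5.77 CPM (n = 3, SD) in MS rats and 36.5 ± 1.71 CPM (n = 3, SD) in MS+EA rats, the last of which were below every other rat. Its log2 fold change in MS+EA relative to Control rats was -0.37 (SE 0.121, edgeR adjusted p = 0.0941). For Nr4a1, an orphan nuclear receptor induced with Fos, it was -0.64 (SE 0.213, edgeR adjusted p = 0.0979), and for Dusp1, a phosphatase of the stress-activated kinases, -0.67 (SE 0.228, edgeR adjusted p = 0.102). Homer1, whose short form is induced by activity while its long form is a constant scaffold, was the higher one. Its level was 352 ± 40.6 CPM (n = 3, SD) in Control rats, 457 ± 50.2 CPM (n = 3, SD) in MS rats and 455 ± 60.1 CPM (n = 3, SD) in MS+EA rats, and gene counts do not part the forms. The log2 fold change of Homer1 was 0.38 in MS relative to Control rats (SE 0.111, edgeR adjusted p = 0.219).

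In MS relative to Control rats the early response list had a median log2 fold change of -0.11, and in MS+EA relative to MS rats one of -0.21. Gadd45g, a regulator of stress kinases and DNA demethylation, had 6.74 ± 0.901 CPM (n = 3, SD) in Control rats and 3.74 ± 0.450 CPM (n = 3, SD) in MS rats without overlap, a log2 fold change of -0.85 (SE 0.252, edgeR adjusted p = 0.224). For Per1, a clock gene that is also induced by activity and glucocorticoids, it was -0.48 (SE 0.207, edgeR adjusted p = 0.441). Klf4 had a log2 fold change of -0.88 in MS+EA relative to MS rats (SE 0.337, edgeR adjusted p = 0.322) and Amigo3 one of -0.58 (SE 0.254, edgeR adjusted p = 0.381). Nr4a2 had one of 0.76 (SE 0.331, edgeR adjusted p = 0.373), with C3 at 42.9 CPM and C10 and C16 at 15.5 and 19.1 CPM.

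Among the 14 tested genes of the list of other family genes and partners, 13 had a negative log2 fold change in MS+EA relative to Control rats, with a median of -0.20, and 0 passed the test. Srf, the serum response factor, had 56.9 ± 4.15 CPM (n = 3, SD) in Control rats, 49.5 ± 3.78 CPM (n = 3, SD) in MS rats and 44.9 ± 3.70 CPM (n = 3, SD) in MS+EA rats. The last were below every Control rat, with a log2 fold change of -0.34 (SE 0.0916, edgeR adjusted p = 0.0504). Arnt2, the partner of Npas4, had one of -0.21 (SE 0.0609, edgeR adjusted p = 0.0641). Nab1, a corepressor of Egr proteins, had one of -0.16 in MS relative to Control rats (SE 0.0707, edgeR adjusted p = 0.455). Atf3, a stress-induced partner of Jun, was lower in MS+EA than in MS rats by a log2 fold change of -1.40 at a level of 0.555 to 5.37 CPM over all rats (SE 0.622, edgeR adjusted p = 0.382).

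The list of 24 signalling genes upstream of the immediate early genes had a median log2 fold change of -0.00 in MS+EA relative to Control rats, with 13 negative, and 0 passed both thresholds. At an unadjusted p under 0.05, 8 were lower and 3 higher, and 7 were lower and 4 higher without overlap, where 12.9% and 13.0% of all tested genes were so. Creb1, which encodes CREB, was higher in each MS and MS+EA rat than in each Control rat. Its level was 69.2, 63.0 and 65.8 CPM in the Control rats, 87.6, 94.8 and 86.8 CPM in the MS rats, and 87.9, 96.8 and 88.0 CPM in the MS+EA rats. The log2 fold change of Creb1 was 0.44 in MS relative to Control rats (SE 0.0718, edgeR adjusted p = 0.0578) and 0.46 in MS+EA relative to Control rats (SE 0.0721, edgeR adjusted p = 0.00795), under a fold change of 1.5. Kinases of the Rps6ka family, which can act on CREB, were divided. Rps6ka3 and Rps6ka5 had log2 fold changes of 0.55 (SE 0.127, edgeR adjusted p = 0.0313) and 0.27 (SE 0.0676, edgeR adjusted p = 0.0411) in MS+EA relative to Control rats, without overlap. Rps6ka2 and Rps6ka4, named here after their values were seen, had -0.21 (SE 0.0694, edgeR adjusted p = 0.101) and -0.21 (SE 0.0791, edgeR adjusted p = 0.133), also without overlap. Camk2a, the abundant calcium-dependent kinase of excitatory neurons, had a mean of 2269 ± 287 CPM (n = 3, SD) in Control rats and 1770 ± 102 CPM (n = 3, SD) in MS+EA rats. Its log2 fold change was -0.36 (SE 0.0891, edgeR adjusted p = 0.0387). Mef2d, a transcription factor controlled by calcium, had a log2 fold change of -0.26 in MS+EA relative to Control rats (SE 0.0652, edgeR adjusted p = 0.0400). For Crtc3, a coactivator of CREB, MS relative to Control rats gave a log2 fold change of -0.36 (SE 0.152, edgeR adjusted p = 0.423) and 0.45 in MS+EA relative to MS rats (SE 0.153, edgeR adjusted p = 0.287). Map2k1 and Map2k2, the kinases that activate ERK, had log2 fold changes of -0.22 (SE 0.0756, edgeR adjusted p = 0.300) and -0.21 (SE 0.0698, edgeR adjusted p = 0.290) in MS+EA relative to MS rats.

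**Figure D4:**
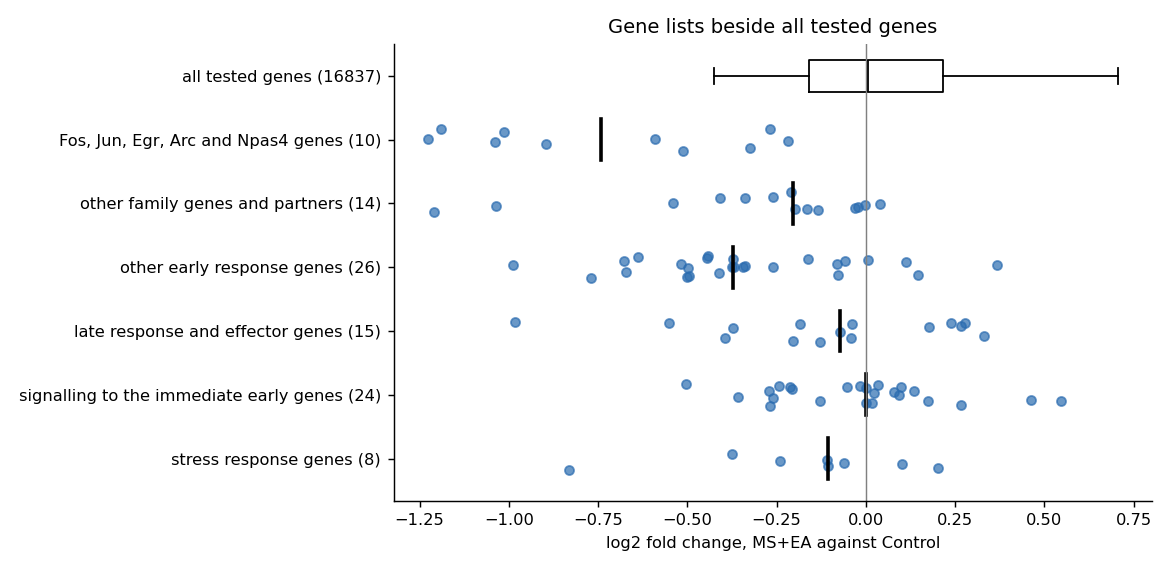
Log2 fold change in MS+EA against Control (horizontal axis) of each tested gene (points) of 6 lists, with a black line at the median of each list. The box shows the median and quartiles of all 16837 tested genes, with whiskers at the 5th and 95th percentile. The median is -0.74 for the 10 genes, -0.37 for the other early response genes and -0.00 for the signalling genes.

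For the 15 tested late response and effector genes the median log2 fold change in MS+EA relative to Control rats was -0.07, with 10 negative and 0 past the test. Cdkn1a, a cell cycle inhibitor, had 10.7 ± 6.53 CPM (n = 3, SD) in Control rats, 10.7 ± 0.484 CPM (n = 3, SD) in MS rats and 5.38 ± 0.666 CPM (n = 3, SD) in MS+EA rats, which were below all other rats. Its log2 fold change in MS+EA relative to MS rats was -0.99 (SE 0.324, edgeR adjusted p = 0.275). In the same comparison Vgf, a secreted peptide precursor induced by neurotrophins, had one of -0.56 (SE 0.165, edgeR adjusted p = 0.245). Nptx2, a secreted organizer of excitatory synapses, had one of -0.35 (SE 0.114, edgeR adjusted p = 0.275), and the opioid precursor Penk one of 0.46 (SE 0.196, edgeR adjusted p = 0.363). The 8 tested stress response genes, among them targets of glucocorticoids and heat shock genes, had a median of -0.11 in each comparison with Control rats and 0 of them had an unadjusted p under 0.05 in any of the 3 comparisons or passed edgeR's test.

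Fos and most of the other genes varied together over the 9 rats. On log2 CPM, with 11 relations to Fos computed, Junb had a Pearson's r of 0.88 (exact permutation p = 0.00225, adjusted 0.00825) and a Spearman's rho of 0.90 (exact permutation p = 0.00203, adjusted 0.0165). For Arc, r was 0.88 (exact permutation p = 0.00191, adjusted 0.00825) and rho 0.80 (exact permutation p = 0.0138, adjusted 0.0217), and for Egr1, r was 0.78 (exact permutation p = 0.0102, adjusted 0.0187) and rho 0.87 (exact permutation p = 0.00451, adjusted 0.0165). Npas4 had an r of 0.41 (exact permutation p = 0.274, adjusted 0.274) and a rho of 0.43 (exact permutation p = 0.250, adjusted 0.250). For Jun and Fosl2, r was 0.602 and 0.608 (exact permutation adjusted p = 0.0937 for each). Their rho was 0.600 and 0.667 (adjusted 0.118 and 0.081). Jund had an r of 0.685 (adjusted 0.0584) and a rho of 0.517 (adjusted 0.178). For Fosb, Egr2, Egr4 and Egr3, r lay between 0.758 and 0.856, with an adjusted permutation p of at most 0.0266. Without C10 and C16, the rats farthest from the median of Fos, r was 0.91 for Junb, 0.61 for Arc, 0.83 for Egr1 and 0.14 for Npas4. It was then 0.562 for Jun, 0.221 for Fosl2 and 0.074 for Jund. For Fosb, Egr2, Egr4 and Egr3 it was then 0.725, 0.744, 0.693 and 0.606. With each group centred on its own mean, r with Fos was 0.83 for Junb, 0.85 for Arc, 0.94 for Egr1 and 0.45 for Npas4. For Jun, Fosl2 and Jund the centred r was 0.295, 0.553 and 0.284. For Fosb, Egr2, Egr4 and Egr3 it was 0.596, 0.795, 0.700 and 0.789. Over the 36 pairs of the 9 genes other than Npas4 the median r was 0.76, and over the 9 pairs with Npas4 it was 0.16, as a description without a test. The 36 pairs ranged from 0.082, for Fosl2 and Jun, to 0.946, for Fosb and Egr4. Jun also had low values with Egr4 (0.256) and Egr2 (0.319). All values of a rat share its library and scaling factor. The share of all tested genes that varied as closely with Fos was not computed.

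**Figure D5:**
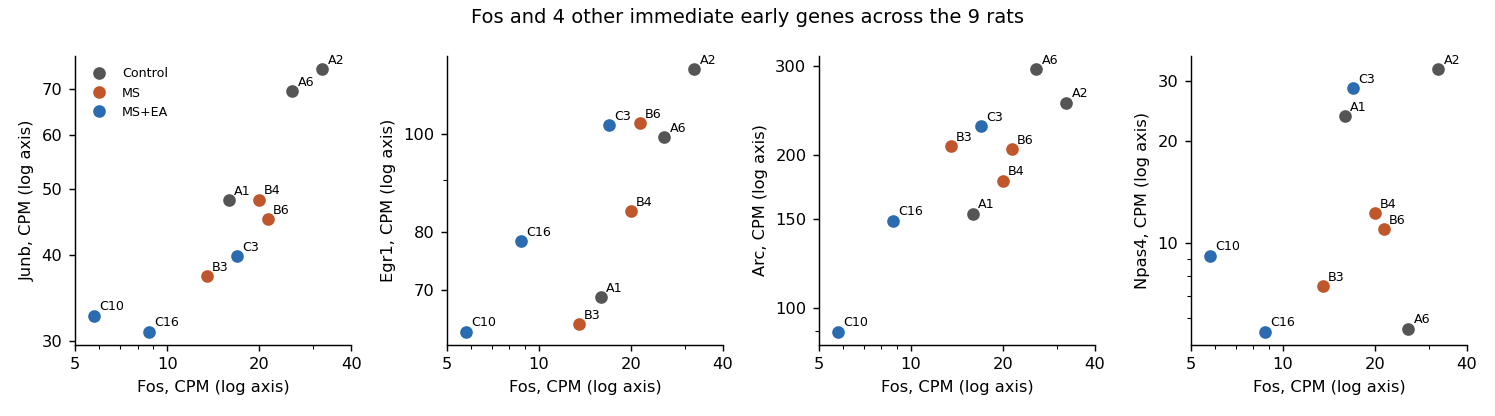
CPM of Junb, Egr1, Arc and Npas4 (vertical axes, log scale) against CPM of Fos (horizontal axis, log scale) in the 9 rats, coloured by group and named. Junb follows Fos across all groups (r = 0.88), and Npas4 does so less closely (r = 0.41), with A6 far below the others at its level of Fos.

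The genes whose pattern over the 9 rats was most like the mean of the 10 were ranked by Pearson's r among 15264 tested genes with a mean of at least 1 CPM, as a description without a test. The 10 nearest were LOC103692837, Csf2rb, Tspan17, Afg3l1, Gpsm1, Tiparp, Gtf3c1, Nr4a1, Rpl37a-ps1 and Trim24, with r between 0.88 and 0.91. Tiparp (r = 0.89, rho = 0.93) and Nr4a1 (r = 0.89, rho = 0.83) are themselves early response genes and were on the list of that name. Without the 2 rats farthest from the median, r was 0.86 for Tiparp and 0.90 for Nr4a1, and over all 10 it was between 0.73 and 0.90.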

How the data were processed

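Total RNA of the frontal cortex of 9 rats was depleted of rRNA and sequenced on HiSeq X instruments. Reads were mapped to Rnor_6.0 with HISAT2 2.0.4 per the submitters' processing notes. The authors deposited whole-number counts per gene without normalization. The counting program, its strand setting and its treatment of reads with several locations are not given in the sources used here. Groups were taken from the sample titles. Counts were scaled by TMM, filtered with filterByExpr (minimum count 10) and fitted with edgeR 4.0.16 in R 4.3.3, in one quasi-likelihood model of all 9 rats, with Benjamini-Hochberg adjustment over 16837 genes. A gene passed the test where its adjusted p was under 0.05 and its fold change over 1.5. The SE is the absolute log2 fold change over the root of the F statistic. Log2 CPM for correlations used a prior count of 2. No permutation test is given for single genes, since 3 rats against 3 allow no exact two-sided p below 0.1. The p-values of edgeR weigh group differences against the spread between these rats, with the spread of each gene moderated over all tested genes. The exact permutation p-values of the correlations exchange all 9 rats, so differences between groups enter them too. Rats were treated as independent, although their litters are not known. The biological coefficient of variation was 12.7%. The 10 genes, the lists and the rules were chosen with earlier results of these data known. Genes named beside the 10 are those of each list with an unadjusted p under 0.05, up to 4 by smallest p in each comparison, the other Fos, Jun and Egr genes, and the 10 genes most like the mean. Alternatives were RLE scaling, total counts, 2 other filters, DESeq2 1.42.0, a fit of the 6 rats compared and each rat left out. The form with bias-adjusted deviances was chosen after seeing the data. The procedures were tested on simulated data. Tables and plots used Python 3.11.15, scipy 1.17.1 and matplotlib 3.10.9.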

Additional observations from a re-analysis of the deposited data

How the results depend on the processing

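No paired analysis was possible because any pair of groups shared at most 1 replicate number in the labels, held by separate animals. Of the log2 fold changes of the 10 genes recomputed under alternatives, 361 kept their direction and their side of the thresholds, 13 reversed, 11 lost a call and 5 gained one. With a filter of at least 1 count, 6 of the 10 genes passed between MS+EA and Control rats instead of 3, and those at an unadjusted p under 0.05 numbered 6 between MS and Control rats and 5 between MS+EA and MS rats. The SE was smaller under that filter, for Fos in MS against Control 0.2097 rather than 0.322. The cause was not tested. In a fit of only the 6 rats compared, the numbers at an unadjusted p under 0.05 were 5 and 4 in the same comparisons. The shares of all tested genes were not computed for that filter, that fit, DESeq2 or with rats left out. A count of the 10 under these settings therefore cannot be set beside them. In the fit of 6 rats and with total counts 2 genes rather than 3 passed between MS+EA and Control rats, Egr4 being lost. With total counts 1 gene had an unadjusted p under 0.05 between MS+EA and MS rats, and the log2 fold changes of Egr1 and Egr2 there were 0.0073 and 0.026. With DESeq2 size factors in edgeR, 1 of the 10 genes did not overlap between MS and Control rats. The share of all tested genes without overlap was not computed with these factors. This count therefore has no background to be set beside, and no change in the result of the 10 is read from it. With rats left out in turn, the genes that passed numbered 1 to 5 between MS+EA and Control rats and 0 in the other comparisons. Those at an unadjusted p under 0.05 numbered 1 to 4 (MS against Control), 0 to 5 (MS+EA against MS) and 4 to 8 (MS+EA against Control). Log2 fold changes that changed sign ranged from -0.0433 to 0.20 for Jun and from -0.39 to 0.14 for Fosl2 in MS against Control, from -0.23 to 0.13 for Egr1, from -0.58 to 0.25 for Egr2, from -0.37 to 0.0209 for Fosl2 and from -0.46 to 0.88 for Npas4 in MS+EA against MS, and from -0.58 to 0.0325 for Fosl2 in MS+EA against Control. Bias-adjusted deviances changed no call of the 10.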
